A study of Mus musculus with 2 samples.

Results

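The early cartilage programme of the mouse hindlimb at embryonic stage E11.5 was followed through 10 genes in single-cell transcriptomes. They are the transcription factor genes Sox9, Sox5 and Sox6, known as the Sox trio, and the matrix genes Col2a1, Col9a1, Col9a2, Col9a3, Cnmd, Matn4 and Acan. These 10 of the 56982 features were chosen by name, and each was found as 1 feature in both count matrices. All mice were of the FVB strain and carried 2 fluorescent reporter genes inserted at the H11 locus. Both reporters were driven by the ZRS, the distant enhancer that switches on Shh in the posterior limb bud. In both groups mCherry stood under the reference form of the ZRS and eGFP under the ZRS404G>A allele, so no group was free of reporters. In the dual-enSERT-2 group the labels add an element named B at either end of this pair and one named SI between its units, and in the dual-enSERT-1 group neither. Each group held 1 library, made with the same droplet kit for 3' ends after digestion with collagenase II. The labels do not spell out what B and SI stand for, nor how many embryos gave the cells of a library.

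SOX9 is the transcription factor on which cartilage formation depends, and mesenchyme cells of the limb bud that will form the skeleton express it before they condense. SOX5 and SOX6 are close relatives that lack a transactivation domain of their own and act beside SOX9 on cartilage matrix genes. Type II collagen, encoded by Col2a1, forms the fibrils of cartilage, and type IX collagen, assembled from the chains of Col9a1, Col9a2 and Col9a3, sits on their surface. Matn4 encodes matrilin-4, an adaptor protein of the matrix, Cnmd encodes chondromodulin, a membrane glycoprotein whose released part inhibits vessel growth, and Acan encodes aggrecan, the large proteoglycan of mature cartilage. Proximal limb mesenchyme is marked by the homeobox genes Meis1 and Meis2, and the distal mesenchyme that forms the foot by Hoxa13.

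Promoter sequences bear on how the trio and the matrix genes relate, because SOX proteins bind short motifs around ACAAAG or ACAATG. The RefSeq promoters used here cover 7 of the 10 genes, with 14 start sites in all, and hold none of Sox9, Col2a1 or Col9a3. They are windows of 300 bases from 250 before to 50 after the start on GRCm38.p6. In the windows below, written 5′ to 3′ on the gene's strand with the start site after base 250, capitals mark every ACAAAG or ACAATG on either strand, read as CTTTGT or CATTGT on the other one. In the comparisons of proximal with distal cells described further on, Cnmd and Matn4 were far higher proximally in dual-enSERT-1, and Col9a1 was not. Shown are windows of these genes and the Sox6 window with the most matches. They lie at chr7:115995037-115995336 on the minus strand (Sox6, the third of 6 starts), chr1:24177360-24177659 and chr1:24194953-24195252 on the plus strand (Col9a1, both starts), chr14:79662134-79662433 on the minus strand (Cnmd) and chr2:164405111-164405410 on the minus strand (Matn4, the first of 2 starts).
Sox6, start 3: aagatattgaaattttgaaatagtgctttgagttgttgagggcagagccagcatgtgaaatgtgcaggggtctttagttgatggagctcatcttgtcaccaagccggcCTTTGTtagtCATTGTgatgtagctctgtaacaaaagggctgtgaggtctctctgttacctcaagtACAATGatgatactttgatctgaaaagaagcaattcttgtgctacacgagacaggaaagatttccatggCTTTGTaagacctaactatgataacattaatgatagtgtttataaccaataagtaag
Col9a1, start 1: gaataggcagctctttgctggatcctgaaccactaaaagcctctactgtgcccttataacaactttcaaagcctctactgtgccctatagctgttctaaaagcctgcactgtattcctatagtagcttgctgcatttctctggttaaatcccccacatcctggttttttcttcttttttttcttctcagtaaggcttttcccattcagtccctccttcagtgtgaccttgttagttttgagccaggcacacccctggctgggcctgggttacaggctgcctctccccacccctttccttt
Col9a1, start 2: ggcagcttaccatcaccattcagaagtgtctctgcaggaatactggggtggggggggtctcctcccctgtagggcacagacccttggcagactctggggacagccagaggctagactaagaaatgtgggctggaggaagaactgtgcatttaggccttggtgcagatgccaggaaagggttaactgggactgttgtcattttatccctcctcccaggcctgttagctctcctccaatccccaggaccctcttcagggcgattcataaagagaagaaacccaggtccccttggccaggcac
Cnmd: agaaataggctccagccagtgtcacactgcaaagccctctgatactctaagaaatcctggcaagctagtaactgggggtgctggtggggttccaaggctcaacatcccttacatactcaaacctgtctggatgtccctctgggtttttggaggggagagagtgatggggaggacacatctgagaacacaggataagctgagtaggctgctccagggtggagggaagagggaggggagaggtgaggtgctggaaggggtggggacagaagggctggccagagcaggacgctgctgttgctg
Matn4, start 1: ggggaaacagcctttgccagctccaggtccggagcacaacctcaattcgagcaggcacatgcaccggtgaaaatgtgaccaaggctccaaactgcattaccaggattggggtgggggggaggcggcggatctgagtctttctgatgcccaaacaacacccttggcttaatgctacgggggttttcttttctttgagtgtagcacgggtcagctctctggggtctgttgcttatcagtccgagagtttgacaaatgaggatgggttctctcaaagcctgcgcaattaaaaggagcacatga
The Sox6 window holds CTTTGT at base 109, CATTGT at base 119, ACAATG at base 175 and CTTTGT at base 244. A match stood in 5 of the 6 Sox6 windows and in the single Sox5 window, with ACAATG at base 97, and in none of the windows of Col9a1, Col9a2, Cnmd, Matn4 and Acan. Of all 32851 promoters of this length, 18.71% hold ACAAAG, 12.57% hold ACAATG and 28.6% hold either. A match is only a run of letters, and its absence here says nothing of sequence outside the window.

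The dual-enSERT-2 matrix held 8885 barcodes with 184301053 UMIs, and the dual-enSERT-1 matrix held 20508 barcodes with 298653282 UMIs, against 10000 cells loaded per the labels. After filters on genes, mitochondrial share and doublets, 6466 cells remained in dual-enSERT-2 with a median of 25826 UMIs, and 15877 cells in dual-enSERT-1 with a median of 13938 UMIs. Only 49 barcodes occurred in both matrices. Classes came from clusters drawn without the 10 genes. Mesenchyme made up 58.6% of kept cells in dual-enSERT-2 (3786 cells) and 81.5% in dual-enSERT-1 (12946 cells). The hindlimb label held: in mesenchyme, Pitx1 stood at 335 and 349 CPM (UMIs of the gene among all UMIs of the cells, scaled to a common total) and Tbx4 at 130.3 and 190.2 CPM in dual-enSERT-2 and dual-enSERT-1, while the forelimb gene Tbx5 had 1 and 55 UMIs. Markers of neural crest and glia, which also express Sox5 and Sox6, were low there, with 6 and 91 Sox10 UMIs.

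Levels below are pooled over the cells of a group, in CPM. Their intervals are exact Poisson intervals, ratios carry exact conditional intervals and shares carry Clopper-Pearson intervals, all at 95% and all for counting error only. With 1 library per group no difference has a replicate check, no test was run, and a gene counts as higher or lower where the log2 ratio, with 1 CPM added to both levels, passes 2-fold (1.5-fold between libraries). Levels are compared between cells and not between genes, since the genes span very different lengths, from 5.58 kb for Sox9 (chr11:112673009-112678586 on GRCm39) to 954 kb for Sox5 (chr6:143774151-144727703), and whether intronic reads were counted is not given in the sources used here.

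Sox9 and Sox5 were genes of the mesenchyme. Sox9 stood at 88.5 CPM (86.7 to 90.3) in mesenchyme of dual-enSERT-2 and at 238 CPM (236 to 240) in dual-enSERT-1. In the other named classes it reached at most 24.2 CPM (19.6 to 29.7) and 22.2 CPM (18.7 to 26.2), both in ectoderm. Mesenchyme led the next class by far more than the counting intervals in both libraries. Sox5 stood at 267 CPM (264 to 271) in mesenchyme of dual-enSERT-2 and 329 CPM (326 to 331) in dual-enSERT-1. Its next class in dual-enSERT-2 was the macrophages at 71.1 CPM, where 33 of 114 UMIs lay in 1 of 56 cells, and in dual-enSERT-1 the ectoderm at 58.6 CPM.

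Sox6 and Col2a1 were highest in ectoderm instead. Col2a1 stood at 12.9 CPM (12.2 to 13.6) in the mesenchyme of dual-enSERT-2, against 183 CPM (170 to 197) in its ectoderm. In dual-enSERT-1 the mesenchyme held 93.9 CPM (92.5 to 95.2) and the ectoderm 158 CPM (148 to 168). The ectodermal UMIs were spread over 130 of 182 cells in dual-enSERT-2 and 227 of 426 cells in dual-enSERT-1, with at most 41 and 66 in 1 cell. Sox6 stood at 21.3 CPM in mesenchyme and 96.2 CPM (86.7 to 106) in ectoderm of dual-enSERT-2. The corresponding levels in dual-enSERT-1 were 128 CPM (127 to 130) in mesenchyme and 136 CPM (127 to 145) in ectoderm, whose intervals overlap. The type IX collagen genes were scarce in ectoderm. In dual-enSERT-2 it held 0.773 CPM of Col9a1, 1.03 CPM of Col9a2 and 2.06 CPM of Col9a3, from 3, 4 and 8 UMIs. In dual-enSERT-1 it held 1.89, 0.945 and 2.21 CPM of these genes, from 12, 6 and 14 UMIs.

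Of the other matrix genes, Col9a1 was highest in mesenchyme in both libraries, and Col9a2, Col9a3, Cnmd and Matn4 in dual-enSERT-1. Col9a1 stood at 12.6 CPM in mesenchyme of dual-enSERT-2, against 2.69 CPM (0.985 to 5.84) in muscle, the next class. In dual-enSERT-1 mesenchyme held 45.3 CPM (44.4 to 46.2) and muscle 24.3 CPM (21.5 to 27.4), both well above the 3.36 CPM of macrophages, the third class. Col9a2 in dual-enSERT-2 had only 39 mesenchymal UMIs, at 0.363 CPM, against endothelium with 7 UMIs at 2.82 CPM (1.13 to 5.82). In dual-enSERT-1 its order was reversed, with 10.1 CPM in mesenchyme and 4.13 CPM (2.65 to 6.15) in endothelium. Col9a3 reached 11.7 CPM in mesenchyme of dual-enSERT-1 and no more than 2.21 CPM in another class, whereas in dual-enSERT-2 mesenchyme at 1.31 CPM (1.11 to 1.55) and ectoderm at 2.06 CPM (0.89 to 4.06) overlapped. Cnmd and Matn4 stood at 4.61 and 4.97 CPM in mesenchyme of dual-enSERT-1, against at most 0.630 and 0.841 CPM in another named class. They had 925 and 998 mesenchymal UMIs there but 8 and 9 in dual-enSERT-2. Acan was near 0 in both, with 8 UMIs among all mesenchyme cells of dual-enSERT-2 and 18 in dual-enSERT-1.

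**Figure D1:**
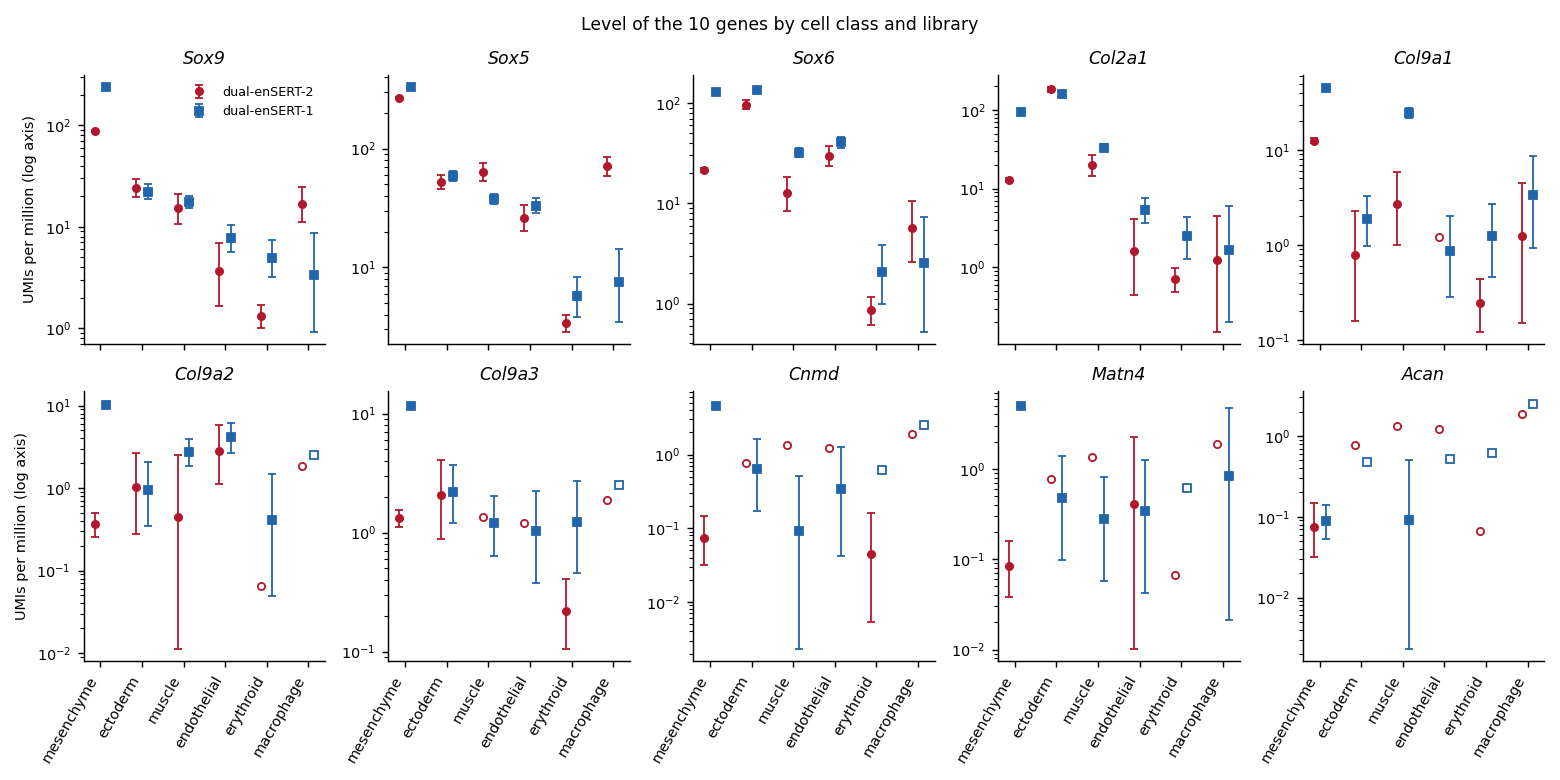
Pooled level of each of the 10 genes (CPM, log axis) in the named cell classes, with dual-enSERT-2 left of dual-enSERT-1, exact Poisson intervals as bars, and open symbols for a gene listed at 0 UMIs, drawn at the level of 3 UMIs. Sox9, Sox5 and Col9a1 were highest in mesenchyme in both libraries, and Col2a1 and Sox6 in ectoderm.

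Against all other named classes pooled, 4 of the 10 genes were at least 2-fold higher in mesenchyme in both libraries, against a background of 5.69% of genes with at least 20 CPM (68.4% in dual-enSERT-2 and 6.23% in dual-enSERT-1 alone). These were Sox9 at 22.0-fold (19.2 to 25.2) in dual-enSERT-2 and 17.1-fold (15.5 to 18.9) in dual-enSERT-1, Sox5 at 21.9-fold and 9.43-fold, Col9a1 at 31.8-fold and 4.51-fold, and Sox6 at 2.27-fold and 2.56-fold. Col9a1 lay under 20 CPM in dual-enSERT-2, and over genes with 1 UMI or more the background in both libraries was 2.91%. With doublets kept the count was 3, since the log2 ratio of Sox6 in dual-enSERT-2, with 1 CPM added, was then 0.94. In dual-enSERT-1 those of Sox9 and Sox5 were then 2.26 and 1.96, in place of 3.999 and 3.20, and that of Col9a1 was 1.43 in place of 2.07. The high background of dual-enSERT-2 goes with its 1636 erythroid cells, in which the members were close to 0. Without erythroid cells the count was 3, against a background of 3%, since mesenchyme then held 0.45 times (0.407 to 0.497) the Sox6 of the other classes in dual-enSERT-2. Col2a1 showed no mesenchymal excess in dual-enSERT-2, with a ratio of 0.903 with and 0.172 without the erythroid cells, and ratios of 1.94 and 1.63 in dual-enSERT-1.

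Shares of cells were read once every cell was thinned to 5000 UMIs. Sox9 was seen in 26.3% of 3749 mesenchyme cells of dual-enSERT-2 and 46.5% of 12829 of dual-enSERT-1 (55.5% and 63.5% without thinning). In erythroid cells, which should lack the gene, the shares were 0.981% and 2.06%. Median depth before thinning was 27349.5 UMIs in mesenchyme and 27306.5 UMIs in erythroid cells of dual-enSERT-2, and 14525 and 19376 UMIs in those of dual-enSERT-1. Sox5 was seen in 60.1% and 61.1% of mesenchyme cells, Sox6 in 8.59% and 25.2%, and Col2a1 in 6.13% and 29.2%. Overlap with Sox9 was read in the same cells. Of the cells with a Sox6 UMI, 28.6% (23.7 to 33.8) also had Sox9 in dual-enSERT-2 and 78.2% (76.8 to 79.7) in dual-enSERT-1. Of those with Sox5, 27.9% (26.1 to 29.8) had Sox9 in dual-enSERT-2 and 54.9% (53.8 to 56.0) in dual-enSERT-1. Sox5 and Sox6 cells thus overlapped with Sox9 alike in dual-enSERT-2, near the share of all mesenchyme, and differed in dual-enSERT-1.

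How the other genes appear as Sox9 climbs was read by sorting mesenchyme cells into bins of Sox9 UMIs per 10000 UMIs. The bins held 0, above 0 to 1, above 1 to 2, above 2 to 4 and above 4, with 1686, 1067, 445, 388 and 200 cells in dual-enSERT-2 and 4730, 1807, 1438, 1815 and 3156 cells in dual-enSERT-1. Sox9 itself sets these bins, and the order is one of level within a single stage, not of time. Depth differed between bins: the median ran between 25663.5 UMIs in the top bin and 29620 UMIs in the second bin of dual-enSERT-2, and between 11988.5 UMIs in the top bin and 16637 UMIs in the second bin of dual-enSERT-1. Its part in the results was not tested.

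Col2a1 climbed along the Sox9 bins in both libraries. In dual-enSERT-2 its levels were 6.45, 8.52, 15.7, 28.6 and 55.9 CPM from the lowest to the highest bin. In dual-enSERT-1 they were 27.5, 35.6, 57.6, 96.7 and 275 CPM. Every step was upward, and the top bin stood 8.66-fold (7.32 to 10.2) above the cells without Sox9 in dual-enSERT-2 and 10.01-fold (9.55 to 10.5) in dual-enSERT-1. The levels of dual-enSERT-1 were several times higher at every step. With bins drawn on thinned cells the log2 ratio, with 1 CPM added, was 2.20 in dual-enSERT-2 and 2.97 in dual-enSERT-1, so how alike the folds were depended on the binning.

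Sox6 followed Sox9 far more steeply in dual-enSERT-1. Its levels there were 22.6, 30.2, 59.6, 142 and 421 CPM, a ratio of 18.6 (17.7 to 19.6) between the top bin and the cells without Sox9. In dual-enSERT-2 they were 20.6, 16.1, 19.3, 29.7 and 48.8 CPM, a ratio of 2.37 (2.05 to 2.72), with the lowest value in the second bin. Cells without a Sox9 UMI, which were deeper in dual-enSERT-2, thus held nearly the same Sox6 level in the 2 libraries. The libraries drew apart with each bin. Sox5 was already present in every bin and changed least, with 265, 253, 248, 306 and 346 CPM in dual-enSERT-2 and 232, 242, 260, 331 and 604 CPM in dual-enSERT-1, or 1.31-fold and 2.60-fold.

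The type IX collagen chains did not climb alike. Col9a1 stood at 9.43, 13.9, 15.1, 16.5 and 16.1 CPM in dual-enSERT-2, flat above the second bin, and at 18.0, 29.8, 42.6, 58.8 and 98.1 CPM in dual-enSERT-1. Col9a2 stood at 1.46, 2.14, 3.86, 9.16 and 35.9 CPM in dual-enSERT-1, and Col9a3 at 2.24, 2.72, 6.04, 9.66 and 39.9 CPM. Their top bins were 24.6-fold and 17.8-fold above cells without Sox9, against 5.46-fold for Col9a1. In dual-enSERT-2 Col9a3 reached 3.93 CPM in the top bin, against 0.880 CPM without Sox9, or 4.47-fold (2.47 to 7.85), and Col9a2 reached 0.984 against 0.248 CPM, or 3.96-fold (1.08 to 12.4).

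Cnmd and Matn4 had the largest ratios between the top bin and cells without Sox9 in dual-enSERT-1. Cnmd had 0.391, 0.272, 1.37, 1.84 and 19.1 CPM along the bins, and Matn4 had 0.256, 0.272, 1.07, 2.87 and 20.6 CPM. As for Sox6, Col2a1, Col9a2 and Col9a3 there, most of the gain lay between the last 2 bins. The top bin was 48.9-fold (33.8 to 73.5) above cells without Sox9 for Cnmd and 80.3-fold (51.1 to 134) for Matn4. In dual-enSERT-2 neither gene could be ordered, since the 5 bins held 5, 1, 2, 0 and 0 UMIs of Cnmd and 0, 4, 1, 2 and 2 UMIs of Matn4. Acan had 8 UMIs over the bins of dual-enSERT-2 and 18 over those of dual-enSERT-1, where its ratio of 3.09 (0.785 to 14.4) includes no difference.

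Within dual-enSERT-1 the top bin could be split further, into 1825 cells above 4 to 8 and 1331 cells above 8. Sox6 stood at 294 and 626 CPM in them, Col2a1 at 184 and 423 CPM, Col9a2 at 22.4 and 57.7 CPM and Col9a3 at 23.1 and 67.1 CPM. Cnmd stood at 6.97 and 38.9 CPM and Matn4 at 9.59 and 38.4 CPM. Col9a1 had nearly levelled off, at 90.7 and 110.2 CPM. Only 9 cells of dual-enSERT-2 lay above 8.

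**Figure D2:**
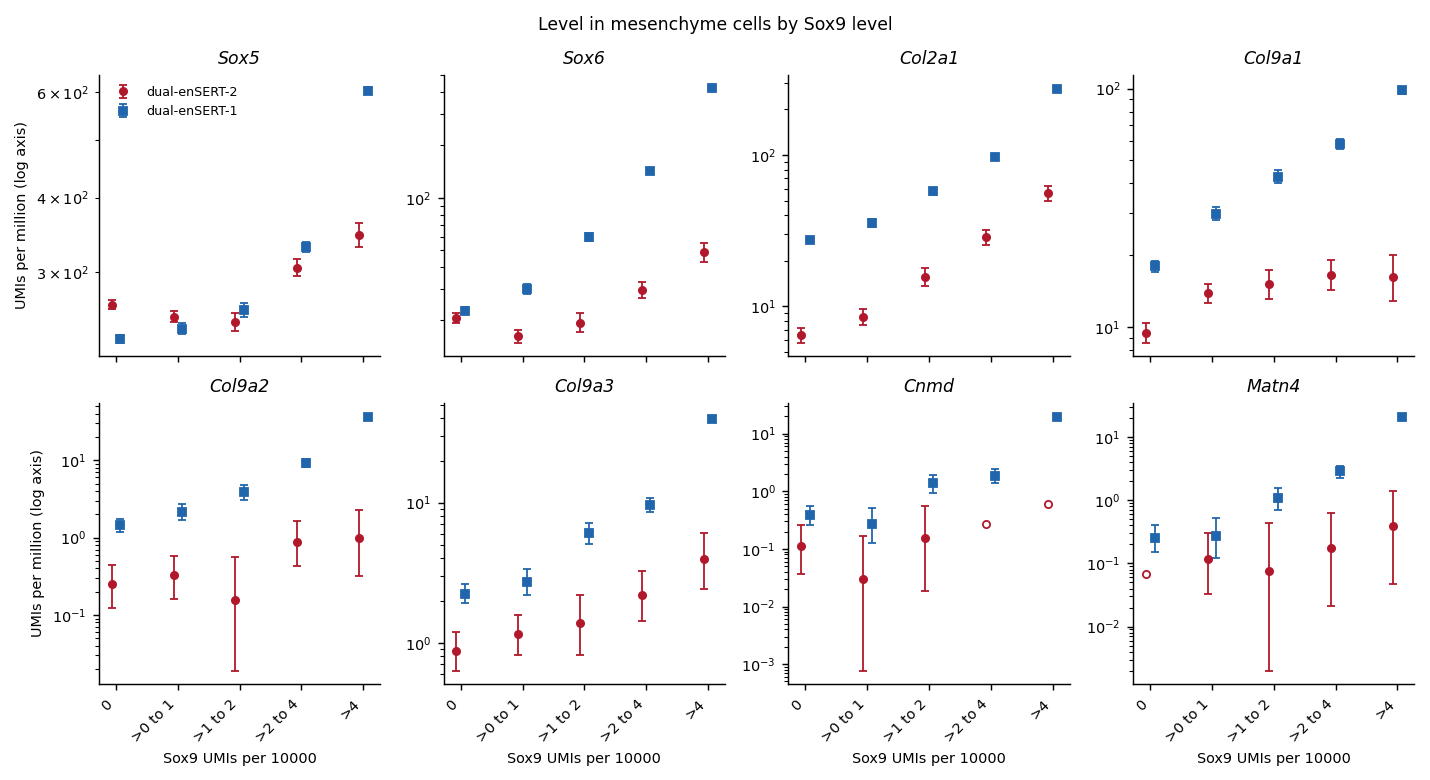
Pooled level of 8 of the genes, without Sox9 and Acan (CPM, log axis) along bins of Sox9 UMIs per 10000 in mesenchyme cells, low to high, for dual-enSERT-2 and dual-enSERT-1, with exact Poisson intervals as bars and open symbols for a gene listed at 0 UMIs, drawn at the level of 3 UMIs. Col2a1 climbed in both libraries, to 55.9 and 275 CPM, while Cnmd and Matn4 reached 19.1 and 20.6 CPM in the last bin of dual-enSERT-1 and were too rare to order in dual-enSERT-2.

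A common yardstick for the order is the lowest bin whose lower bound reaches 2 times the level without Sox9. In dual-enSERT-1 this was the bin above 1 to 2 for Sox6, Col9a1, Col9a2, Col9a3, Cnmd and Matn4, the bin above 2 to 4 for Col2a1 and the top bin for Sox5. In dual-enSERT-2 it was the bin above 1 to 2 for Col2a1 and the top bin for Sox6 and Col9a3. Sox5, Col9a1, Col9a2, Cnmd and Acan met it in no bin there. By the lowest bin whose level, multiplied by 2, reaches that of the top bin, Sox5 and Col9a1 came first in dual-enSERT-1, in the bin above 2 to 4, and Sox6, Col2a1, Col9a2, Col9a3, Cnmd and Matn4 reached it only in the top bin. In dual-enSERT-2 this second yardstick placed Sox6 and Col2a1 in the same bin, above 2 to 4. The order therefore differed with the yardstick and with the library. Col2a1 before Sox6 was seen in dual-enSERT-2 only, and there only by the first yardstick.

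In all, 3 of the 9 genes, Sox6, Col2a1 and Col9a3, were at least 2-fold higher above 4 Sox9 UMIs per 10000 than without Sox9 in both libraries, against a background of 0.778% (1.41% in dual-enSERT-2 and 2.8% in dual-enSERT-1). Col9a3 lay under the 20 CPM of this background in dual-enSERT-2. Over genes with 1 UMI or more the background in both libraries was 0.572%. With bins drawn on thinned cells the count was 1, Col2a1, since Sox6 in dual-enSERT-2 then had a log2 ratio of 0.70 and Col9a3 of 0.58. Other genes moved with the same bins. The reporter eGFP stood at 3.34 CPM in the top bin of dual-enSERT-2, against 40.1 CPM without Sox9, and at 50.2 CPM against 236 CPM in dual-enSERT-1. Meis2 was higher in the top bin of dual-enSERT-2, at 416 CPM against 127 CPM, and lower in that of dual-enSERT-1, at 95.5 CPM against 217 CPM. The other position markers moved the same way in both libraries. Meis1 was higher in the top bin, at 136 against 39.8 CPM in dual-enSERT-2 and 69.5 against 64.4 CPM in dual-enSERT-1. Hoxa13 was lower, at 0.59 against 41.7 CPM and 45.5 against 98.5 CPM, as was Hoxd13, at 1.38 against 40.3 CPM and 29.8 against 104 CPM.

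Of 28 further cartilage genes, 11 reached 5 CPM in the same comparison. In dual-enSERT-2, 2 of these were at least 2-fold higher in the top bin and none lower, against 1.41% and 1.55% of all genes at 20 CPM, with a median log2 ratio of 0.05. In dual-enSERT-1, 8 were higher and none lower, against 2.8% and 1.36%, with a median of 1.996, where that of all genes was 0.04. Foxc1, a forkhead factor gene of early skeletal mesenchyme, had 10.0 CPM in the top bin of dual-enSERT-2, against 0.745 CPM without Sox9, and 28.9 against 1.39 CPM in dual-enSERT-1. Bmpr1b, a BMP receptor gene of condensations, was the other gene higher in both, with log2 ratios of 1.70 and 2.50. Markers of later cartilage stayed near 0 in the top bin, with no Col10a1 and no Ihh UMI in dual-enSERT-2 and 7 and 6 UMIs in dual-enSERT-1. Matn1, a matrilin gene of cartilage, had 42 UMIs in the top bin of dual-enSERT-1 and none without Sox9, and none in either group of dual-enSERT-2. Nkx3-2 had no UMI in the top bin of either library. Of 10 other Sox genes, 5 reached 5 CPM, and none of these passed 2-fold in either library. Sox4 stood at 393 CPM in the top bin, against 295 CPM without Sox9, in dual-enSERT-2 and at 570.3 against 381 CPM in dual-enSERT-1. The neural crest gene Sox10, under 5 CPM, had 72 UMIs in the top bin of dual-enSERT-1, against 11 without Sox9, and 0 against 3 in dual-enSERT-2, and its part in the high Sox5 and Sox6 levels was not tested.

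Tendon genes did not follow as a group. Of 9 genes of tendon and connective tissue, 7 reached 5 CPM in dual-enSERT-2 and 8 in dual-enSERT-1. Osr2, a zinc finger gene of proximal connective tissue, was higher in the top bin of both, with 46.4 CPM against 2.64 CPM without Sox9 in dual-enSERT-2 and 107 against 29.2 CPM in dual-enSERT-1. Scx, the factor gene of tendon progenitors, reached 69.1 CPM against 15.6 CPM in dual-enSERT-2, with 114 against 63.7 CPM in dual-enSERT-1. Mkx was lower in both, at log2 ratios of -1.57 and -1.87, and Osr1 in dual-enSERT-1 only, at -1.52. Whether Scx and Osr2 mark other cells among those with high Sox9 was not tested. Among 7 genes of adhesion and early matrix, 6 of which reached 5 CPM in dual-enSERT-2 and 7 in dual-enSERT-1, none passed 2-fold in dual-enSERT-2, while 2 were higher and 1 lower in dual-enSERT-1. The proteoglycan gene Vcan was among those higher there, at 715 against 141 CPM, with 402 against 207 CPM in dual-enSERT-2. None of 8 cell cycle genes passed 2-fold in either library.

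The genes most like Sox9 in both libraries, ranked over all genes by the smaller of the 2 log2 ratios between the top bin and cells without Sox9, included Fam181b, Zeb2, Sned1, Sorbs2, Tbx18, Pmp22, Dab1 and Cxcl12. Fam181b led with log2 ratios of 3.41 in dual-enSERT-2 and 3.01 in dual-enSERT-1, and Cxcl12, a chemokine gene, had 4.17 and 2.05. The 8 genes ranked as lower were Tbx3os1, mCherry, Tfap2c, Bmp4, Msx1, Tbx2, Fzd10 and eGFP. Tbx3os1 ranked first, at -3.67 and -2.97. Among the others were Msx1, a homeobox gene of undifferentiated distal mesenchyme, at -3.96 and -2.50, Bmp4 at -2.87 and -2.67, and the reporters, with mCherry at -2.75 and -2.98 and eGFP at -3.24 and -2.21. Both rankings were over the genes at 20 CPM, of which 0.778% were higher and 0.763% lower in both libraries.

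Reading several genes in the same cell showed a graded build-up in dual-enSERT-1. Among cells thinned to 5000 UMIs, the mean number of the 7 matrix genes seen per cell was 0.278, 0.557, 0.847 and 1.47 at 0, 1, 2 and 3 or more Sox9 UMIs. In dual-enSERT-2 it was 0.107, 0.158, 0.217 and 0.299. At least 3 matrix genes were seen in 17.8% of the dual-enSERT-1 cells with 3 or more Sox9 UMIs (463 of 2597 cells) and in 0.189% of those with none. No mesenchyme cell of dual-enSERT-2 reached 3 matrix genes at that depth, 177 of them having 3 or more Sox9 UMIs.

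Matrix levels differed with the combination of Sox genes in a cell. In dual-enSERT-2, 77 of 3749 mesenchyme cells (2.05%) had all 3 Sox genes, and in dual-enSERT-1 2207 of 12829 (17.2%). Col2a1 was seen in 16.9% (9.31 to 27.1) of the cells with all 3 in dual-enSERT-2, in 7.06% (4.57 to 10.3) of those with Sox9 alone and in 2.95% (2.03 to 4.14) of those with none. In dual-enSERT-1 the shares were 66.2% (64.2 to 68.2), 29.5% (27.0 to 32.0) and 16.7% (15.4 to 18.0). The same steps were seen in the pooled levels: Col2a1 in dual-enSERT-1 stood at 305 CPM with all 3, 188 CPM with Sox9 and Sox6, 93.6 CPM with Sox9 and Sox5, 82.7 CPM with Sox9 alone and 38.5 CPM with none. Sox9 itself fell in the same order, at 753, 549, 367, 295 and 34.0 CPM, and how much of the step belongs to Sox9 was not tested. Sox5 alone went the other way in dual-enSERT-1, with 26.3 CPM of Col2a1 and a share of 12.3% (11.1 to 13.5), below cells with none, while in dual-enSERT-2 it had 9.02 CPM against 7.48 CPM with none. Cells with Sox5 and Sox6 but no Sox9 UMI held 65.9 CPM of Col2a1 at 83.2 CPM of Sox9 in dual-enSERT-1, and 13.5 CPM at 45.8 CPM in dual-enSERT-2.

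Cnmd and Matn4 parted from Col9a1 in these combinations. Cnmd had 23.5 CPM in dual-enSERT-1 cells with all 3 Sox genes, 6.22 CPM with Sox9 and Sox6, and 2.53 CPM with Sox9 and Sox5. Matn4 had 25.2, 14.8 and 2.69 CPM in the same cells. Col9a1 had 121, 89.4 and 47.9 CPM, and still 52.1 CPM in cells with Sox5 and Sox6 only, where Cnmd had 0.458 CPM. In dual-enSERT-2 Col2a1 stood at 46.7 CPM (38.1 to 56.6) with all 3 and 27.5 CPM (24.98 to 30.2) with Sox9 and Sox5, and 13.7 CPM (11.48 to 16.3) with Sox9 alone. Only 15 cells of that library had Sox9 and Sox6 without Sox5.

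**Figure D3:**
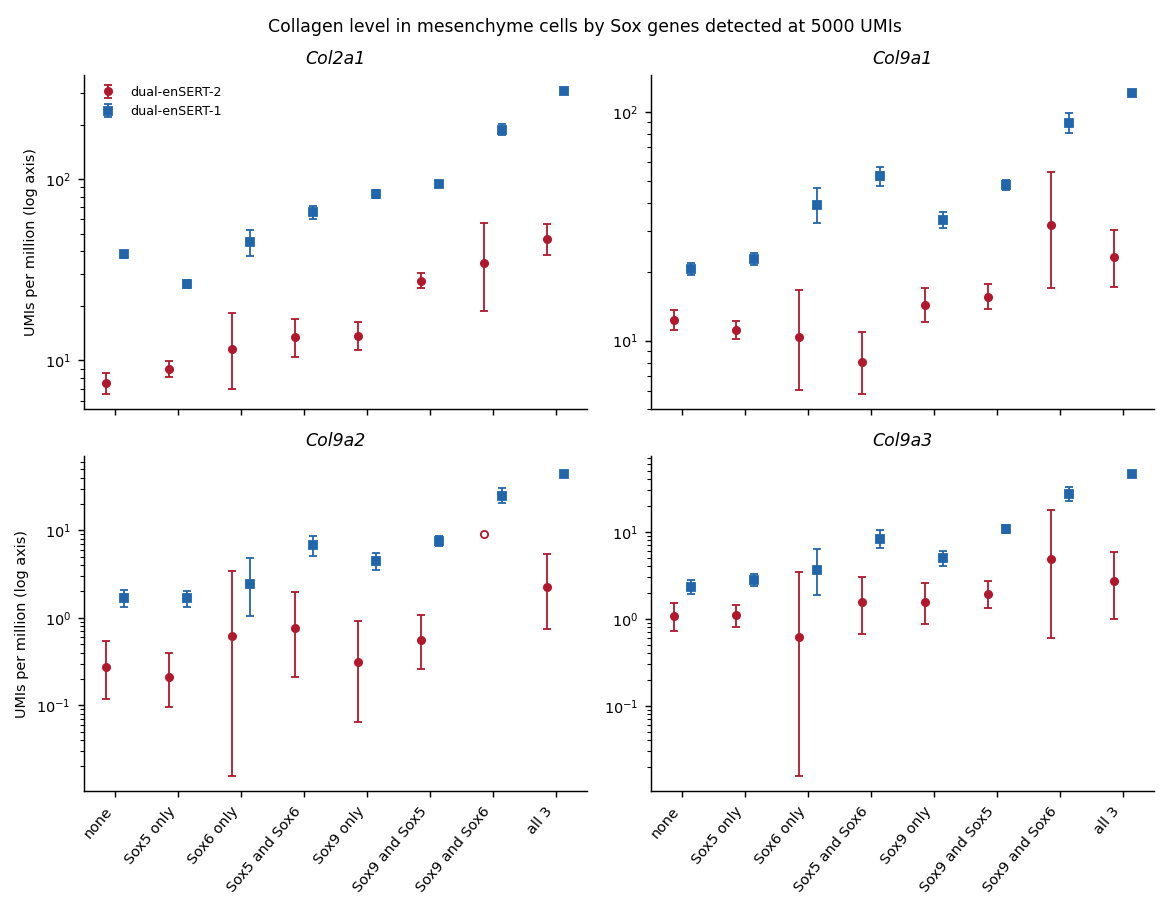
Pooled level of Col2a1, Col9a1, Col9a2 and Col9a3 (CPM, log axis) in mesenchyme cells grouped by which of Sox9, Sox5 and Sox6 had a UMI after thinning to 5000 UMIs, for dual-enSERT-2 and dual-enSERT-1, with exact Poisson intervals as bars and an open symbol for a gene listed at 0 UMIs, drawn at the upper bound of its interval. Col2a1 was highest in cells with all 3 Sox genes, at 46.7 and 305 CPM.

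Position along the limb was read from Meis1 or Meis2 UMIs without Hoxa13 (proximal) and Hoxa13 UMIs without Meis1 or Meis2 (distal), again in cells thinned to 5000 UMIs. This gave 1535 proximal and 307 distal cells in dual-enSERT-2, and 3449 proximal and 2900 distal cells in dual-enSERT-1. Cells with both kinds (33 and 169 cells) or neither (1874 and 6311 cells) were set apart. Median depth was 26484 UMIs in proximal and 28601 UMIs in distal cells of dual-enSERT-2, and 12774 and 16681 UMIs in those of dual-enSERT-1.

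Sox9 and Col2a1 were higher proximally in both libraries. Sox9 stood at 126 CPM in proximal and 20.6 CPM in distal cells of dual-enSERT-2, a ratio of 6.14 (5.31 to 7.13), and at 331 and 139.8 CPM in dual-enSERT-1, a ratio of 2.37 (2.301 to 2.43). Col2a1 stood at 21.0 and 4.85 CPM in dual-enSERT-2, a ratio of 4.33 (3.21 to 5.98), and at 166 and 31.1 CPM in dual-enSERT-1, a ratio of 5.33 (5.05 to 5.62). These were the only 2 of the 10 genes at least 2-fold higher in proximal cells of both libraries, against a background of 1.18% (1.47% in dual-enSERT-2 and 3.92% in dual-enSERT-1). No member was at least 2-fold lower in both, against 0.972% of genes. The count of 2 became 1 when 2 UMIs were needed for detection, Sox9 of dual-enSERT-1 then having a log2 ratio of 0.93.

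Sox5 and Sox6 did not share this slope. Sox5 stood at 243 CPM in proximal and 349.6 CPM in distal cells of dual-enSERT-2 and at 327 and 351 CPM in dual-enSERT-1, ratios of 0.695 (0.668 to 0.723) and 0.930 (0.910 to 0.950). Sox6 was lower proximally in dual-enSERT-2, at 19.2 against 30.2 CPM (ratio 0.636, 0.554 to 0.731), and higher proximally in dual-enSERT-1, at 170.5 against 70.2 CPM (ratio 2.43, 2.34 to 2.53). The trio thus had a proximal, a flat to distal and a library-dependent member.

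Cnmd and Matn4 were far higher in proximal than in distal cells of dual-enSERT-1. Cnmd had 644 UMIs in proximal cells (13.2 CPM) and 24 in distal cells (0.466 CPM), a ratio of 28.4 (18.9 to 44.6). Matn4 had 548 and 19 UMIs (11.3 and 0.369 CPM), a ratio of 30.5 (19.4 to 51.1). Of all 925 Cnmd and 998 Matn4 UMIs of mesenchyme, many lay in cells with neither kind of marker, which held 2.43 CPM of Cnmd and 4.16 CPM of Matn4. Col9a2 at 17.6 and 2.62 CPM and Col9a3 at 19.9 and 4.68 CPM were also higher proximally, by 6.71-fold (5.59 to 8.11) and 4.25-fold (3.69 to 4.92). Col9a1 was not: it stood at 38.5 CPM in proximal and 34.7 CPM in distal cells, or 1.11-fold (1.04 to 1.18). In dual-enSERT-2 Col9a1 had 14.4 and 6.90 CPM, a ratio of 2.09 (1.61 to 2.74) that fell just short of 2-fold once 1 CPM was added. The other matrix genes were too rare there, with 21 and 3 UMIs of Col9a2, 63 and 12 of Col9a3, 6 and 0 of Cnmd, 7 and 1 of Matn4, and 3 and 2 of Acan in proximal and distal cells.

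Because proximal cells also had more Sox9, the comparison was repeated within Sox9 bins. Of proximal cells, 31.7% lay above 4 Sox9 UMIs per 10000 in dual-enSERT-1, against 12.8% of distal cells. In dual-enSERT-2 the shares were 8.86% of proximal cells and none of the 307 distal cells, and at most 11 distal cells lay in any bin above 1. Proximal Col2a1 stayed higher in all 5 bins of dual-enSERT-1, with ratios of 3.89, 3.95, 3.65, 2.68 and 3.57 from no Sox9 to the top bin. In dual-enSERT-2 its ratios were 1.71 (1.15 to 2.64) without Sox9 and 3.40 (1.80 to 7.23) in the second bin. The proximal excess of Col2a1 was therefore seen in dual-enSERT-1 cells with little Sox9 as well as in those with much.

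Sox6 behaved otherwise. In cells without Sox9 it was lower proximally in both libraries, at 15.3 against 29.9 CPM (ratio 0.511, 0.416 to 0.629) in dual-enSERT-2 and 14.1 against 24.0 CPM (ratio 0.589, 0.504 to 0.687) in dual-enSERT-1. In the second bin the ratios were 0.40 (0.305 to 0.527) and 0.50 (0.402 to 0.619). Over the next bins of dual-enSERT-1 they were 1.22, 0.811 and, above 4, 1.85 (1.75 to 1.95), at 509.9 against 275 CPM. Sox5 passed through a like course in dual-enSERT-1, with ratios of 0.344, 0.472, 0.687, 0.758 and 1.54. Proximal cells above 4 numbered 136 in dual-enSERT-2 and 1092 in dual-enSERT-1, and held 45.6 and 509.9 CPM of Sox6. They thus differed in Sox6 level as well as in number. The part of either in the opposite directions of Sox6 was not tested.

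Among cells with a Sox9 UMI, 11 of the 28 further cartilage genes reached 5 CPM in dual-enSERT-2 and 12 did so in dual-enSERT-1. In dual-enSERT-2, 3 were at least 2-fold higher proximally and 2 lower, against 2.44% and 1.6% of all genes at 20 CPM. In dual-enSERT-1, 6 were higher and none lower, against 3.82% and 1.75% of all genes. In both libraries at once, 1.35% of genes were higher and 0.875% lower. By the rule for named genes, Meis1 and Meis2, which set the groups, led the genes higher proximally in both libraries, followed by Pkdcc, Ror1, Osr2, Pcdh9, Nrk and Nr2f1. Osr2 stood at 30.3 CPM in proximal cells and was listed at 0 in distal cells of dual-enSERT-2, with 118 against 8.03 CPM in dual-enSERT-1. Lower proximally, after Hoxa13, were Evx1os, Pcdh15, 9530018H14Rik, Gm15398, Hoxd13, Jag1 and Gja3, with Hoxd13 at 4.15 against 63.6 CPM in dual-enSERT-2 and 7.49 against 166 CPM in dual-enSERT-1.

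In the top bin of dual-enSERT-1, where 1092 proximal and 370 distal cells had 948 and 638 CPM of Sox9, Cnmd and Matn4 differed most. Cnmd had 42.1 CPM in proximal and 1.18 CPM in distal cells, a ratio of 35.5 (17.1 to 88.8). Matn4 had 36.1 and 1.52 CPM, a ratio of 23.7 (12.4 to 52.1). Col9a2 had 52.2 and 10.7 CPM (4.90-fold) and Col9a3 had 58.8 and 17.1 CPM (3.44-fold). Col9a1 ran slightly the other way in all 5 bins of dual-enSERT-1, with ratios of 0.780, 0.701, 0.776, 0.674 and 0.860, so proximal cells with high Sox9 carried somewhat less Col9a1 than distal ones but far more Cnmd and Matn4. In dual-enSERT-2 Col9a1 was higher proximally within bins, by 1.90-fold (1.30 to 2.83) without Sox9 and 1.72-fold (1.13 to 2.72) in the second bin.

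Among mesenchyme cells with a Sox9 UMI, those with 2 or more Col2a1 UMIs at 5000 UMIs were also set beside those with none. They numbered 17 against 878 cells in dual-enSERT-2 and 1435 against 3269 cells in dual-enSERT-1, so the dual-enSERT-2 side rests on few UMIs. Of all genes at 20 CPM, 0.813% were at least 2-fold higher and 0.285% lower in both libraries. The genes named by the rule as higher included Adcy2, Sema3d, Fibin, Sned1, Plagl1, Foxc1 and Pmp22. Adcy2, an adenylate cyclase gene, stood at 73.3 CPM with Col2a1 and 9.10 CPM without in dual-enSERT-1, and had 9 against 49 UMIs in dual-enSERT-2, or 23.9 against 1.93 CPM. Sema3d, a secreted semaphorin gene, stood at 89.4 against 10.3 CPM in dual-enSERT-1 and had 12 against 108 UMIs in dual-enSERT-2, or 31.9 against 4.25 CPM. Named as lower were Pcdh15, Grem1, Pmaip1, Msx1, Nkd2, Pdzd2, Fgf10 and Lhx2. Grem1, a BMP antagonist gene, stood at 7.98 against 37.8 CPM in dual-enSERT-1 and had 1 against 1315 UMIs in dual-enSERT-2, or 2.66 against 51.7 CPM.

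**Figure D4:**
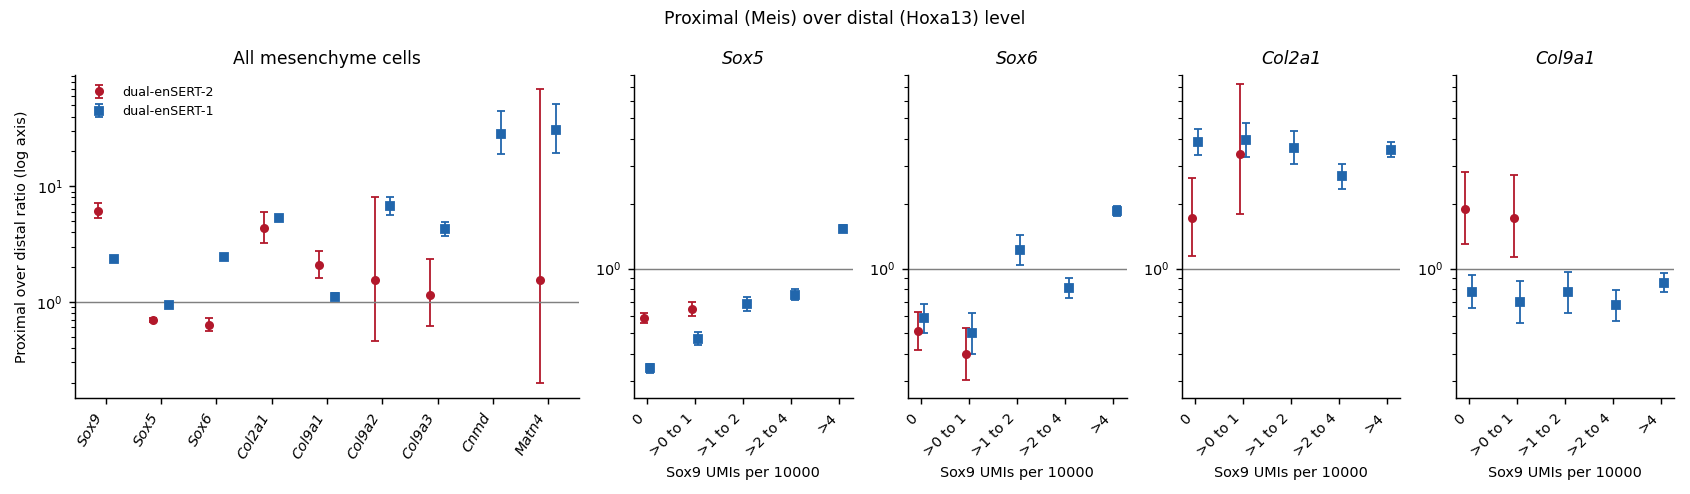
Ratio of proximal over distal level (log axis, line at 1) of 9 of the genes in all mesenchyme cells, left, and of Sox5, Sox6, Col2a1 and Col9a1 along the Sox9 bins, right, in dual-enSERT-2 and dual-enSERT-1, with exact intervals as bars, no point where a level was 0 UMIs, and bins shown only with at least 20 distal cells. Col2a1 was higher proximally in every bin shown, while the Sox6 ratio lay below 1 in both libraries in cells without Sox9, at 0.511 and 0.589.

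The clusters of dual-enSERT-1 also parted 2 sets of cells with high Sox9. One set, clusters led by Cnmd, held 1198 cells with Meis1 at 159 CPM, Shox2 at 771 CPM and Hoxd11 at 48.1 CPM. The other, led by Barx2, held 1170 cells with 9.37, 193 and 283 CPM of these genes and with Gsc at 147 CPM, against 9.81 CPM. Hoxa13 stood at 4.66 CPM in the Cnmd-led and 32.7 CPM in the Barx2-led cells, and Hoxd13 at 4.73 and 11.6 CPM. Distal cells with a Sox9 UMI in dual-enSERT-1 held 238 and 166 CPM of these genes. A Hoxa13 UMI set that distal group, so its Hoxa13 level is no separate result. Hoxd13, which did not set it, was also far lower in the Barx2-led set, which is not read here as the distal cells. The sets were chosen for their leading genes and are described without a test. Sox9 stood at 1013 CPM in the Cnmd-led and 579 CPM in the Barx2-led cells, Sox6 at 624 and 521 CPM, Sox5 at 831 and 575 CPM and Col2a1 at 499.97 and 221 CPM. Col9a1 was the only member lower in the Cnmd-led cells, at 80.2 against 160.3 CPM (ratio 0.50, 0.466 to 0.536). Matn4 had 48.4 and 9.56 CPM, and Acan had 8 UMIs against 0. Cnmd had 56.8 and 1.16 CPM, but it was a leading gene by which the first set was chosen, so this contrast is no separate result.

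No such cluster stood out in dual-enSERT-2. Its cluster with the most Sox9, at 215 CPM in 583 cells, was led by Osr2, Cxcl12 and Ebf2 and held 36.0 CPM of Col2a1. Its highest Sox5 and Sox6, at 891 and 100 CPM, lay in a shallow cluster of 113 cells with a median of 10150 UMIs in which mitochondrial rRNA was among the leading genes. Without that cluster the counts of members past the fold were as before in all 5 comparisons, that is 4 by class, 3 by Sox9 level, 2 and 0 by position and 8 between libraries. Across the 18 mesenchyme clusters of dual-enSERT-1, which share 1 library, Spearman's coefficient with the Sox9 level was 0.81 for Cnmd, 0.78 for Col9a2, 0.77 for Col2a1 and Col9a3, 0.56 for Sox6 and 0.43 for Sox5. Over the 8 clusters of dual-enSERT-2 it was 0.57 for Col2a1, -0.24 for Sox6 and -0.62 for Sox5. These clusters include the shallow one with the highest Sox5 and Sox6, and its part in the coefficients was not tested.

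Between the libraries, nearly the whole set was lower in dual-enSERT-2. In mesenchyme, 8 of the 10 genes were at least 1.5-fold lower there and none higher, against a background of 8.27% of genes that far apart (5.66% lower and 2.61% higher in dual-enSERT-2). That background covers genes at 20 CPM, whereas Col9a2, Col9a3, Cnmd and Matn4 lay under 20 CPM in both libraries. Over genes with 1 UMI or more, 5.55% were that far apart. The median log2 ratio over all genes at 20 CPM was 0.01. Levels in CPM are scaled to a common total, so this median cannot show that the libraries were level. Sox9 in dual-enSERT-2 was 0.372 times (0.363 to 0.380) the dual-enSERT-1 level, Sox6 0.166 times (0.159 to 0.174) and Col2a1 0.137 times (0.130 to 0.145). Col9a1 was 0.277 times (0.262 to 0.294), Col9a3 0.113 times (0.0943 to 0.133) and Col9a2 0.0359 times (0.0254 to 0.0492). Cnmd at 0.0162 times (0.00696 to 0.0320) and Matn4 at 0.0169 times (0.00769 to 0.0322) were furthest apart. Sox5 at 0.814 times (0.803 to 0.825) lay inside 1.5-fold, and Acan at 0.831 times (0.313 to 2.01) was too rare to tell. Construct, embryo and preparation cannot be told apart between the libraries.

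By position, proximal cells of dual-enSERT-2 held 0.382 times (0.370 to 0.394) the Sox9 of proximal cells of dual-enSERT-1, and distal cells 0.147 times (0.127 to 0.170). Distal Sox5 was level between the libraries, at 0.995 times (0.958 to 1.03). Distal Sox6 in dual-enSERT-2 was 0.430 times (0.379 to 0.486) and proximal Sox6 0.112 times (0.105 to 0.121) that of dual-enSERT-1.

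Of the 28 further cartilage genes, 11 reached 5 CPM in mesenchyme of either library, and 4 of these were at least 2-fold lower in dual-enSERT-2, against 1.95% of all genes.

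Within the same Sox9 bin the libraries still differed for the matrix genes. The bins did not fully match Sox9 itself. From the second to the top bin, dual-enSERT-2 held 0.792, 0.988, 0.974 and 0.667 times the Sox9 of dual-enSERT-1. In the bin without a Sox9 UMI the median depth was 25809.5 UMIs in dual-enSERT-2 and 15124.5 UMIs in dual-enSERT-1. A count of 0 therefore sets a looser limit on Sox9 in dual-enSERT-1. The part of these differences in the ratios below was not tested. From no Sox9 to the top bin, dual-enSERT-2 held 0.235, 0.239, 0.272, 0.296 and 0.203 times the Col2a1 of dual-enSERT-1. For Sox6 the ratios were 0.911, 0.534, 0.324, 0.210 and 0.116, and for Sox5 1.14, 1.05, 0.956, 0.924 and 0.574. Col9a1 ran from 0.525 without Sox9 to 0.164 in the top bin. The Col2a1 ratio was thus much alike in every bin, whereas those of Sox6 and Col9a1 moved away from 1 as Sox9 rose. The top bin also held more Sox9-rich cells in dual-enSERT-1, 1331 of 3156 lying above 8, against 9 of 200 in dual-enSERT-2.

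Outside mesenchyme the direction between libraries varied with the class and the gene. Ectodermal Col2a1 in dual-enSERT-2 was 1.16 times (1.05 to 1.28) that of dual-enSERT-1, ectodermal Sox9 1.09 times (0.831 to 1.43), Sox5 0.897 times (0.753 to 1.07) and Sox6 0.708 times (0.625 to 0.800). In muscle, Sox9 was 0.864 times (0.581 to 1.25) and Col2a1 0.608 times (0.436 to 0.830), while Col9a1 at 2.69 CPM in dual-enSERT-2 and 24.3 CPM in dual-enSERT-1 was 0.110 times (0.0402 to 0.244). Muscle of dual-enSERT-2 held only 68 cells, against 548. In macrophages Sox9 was 5.01 times (1.74 to 19.7) and Sox5 9.39 times (4.78 to 21.1) the dual-enSERT-1 level, in 56 against 57 cells and with the single cell rich in Sox5 UMIs named above. In erythroid cells Sox9 was 0.267 times (0.164 to 0.448) the dual-enSERT-1 level, at 1.32 against 4.95 CPM.

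**Figure D5:**
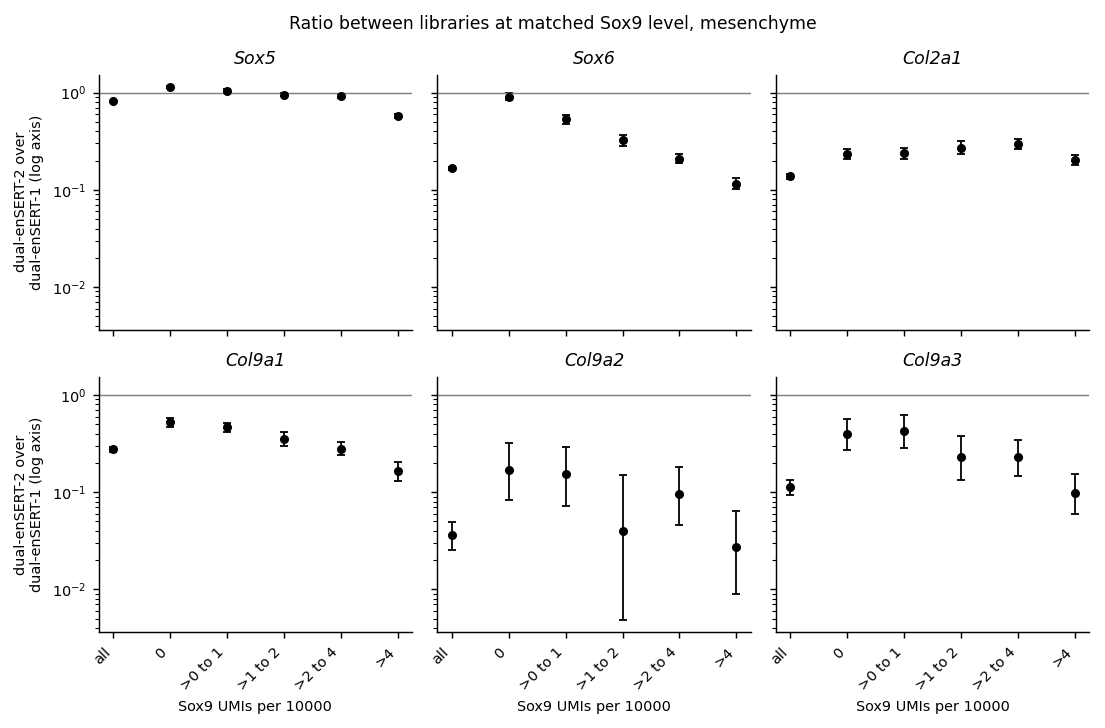
Ratio of dual-enSERT-2 over dual-enSERT-1 (log axis, line at 1) of Sox5, Sox6, Col2a1, Col9a1, Col9a2 and Col9a3 in all mesenchyme cells and in each Sox9 bin, with exact intervals as bars. The Sox6 ratio ran from 0.911 in cells without Sox9 to 0.116 in the top bin, while that of Col2a1 stayed between 0.203 and 0.296.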

How the data were processed

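Droplet 3' single-cell libraries of polyA RNA were made per the labels' protocols from hindlimb cells, 1 library per group, at about 50000 reads per cell. The deposited files hold raw UMI counts per gene and barcode. Cell Ranger 7.0.1 is named in the file headers, whereas version 3.1.0 of it is given, along with Seurat 4 and the build mm39, per the submitters' processing notes. Use of intronic or strand-specific reads is not given in the sources used here. Gene coordinates come from GENCODE M39 on GRCm39, which holds 56236 of the 56982 feature IDs, and promoter sequences from RefSeq on GRCm38.p6.

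Barcodes needed 1000 genes or more and no more than 10% mitochondrial counts. Scrublet, with an expected rate of 8%, then removed 217 doublets (3.25%) in dual-enSERT-2 and 1913 (10.8%) in dual-enSERT-1. Each library was clustered on its own, without the 10 genes, with Scanpy 1.11.5 and leidenalg 0.10.2 from counts per 10000 on a log scale, with 2000 variable genes, 30 components, 15 neighbours and resolution 1. A cluster took the name of the class with the most markers that were seen in 10% or more of its cells, at a level at least 2-fold above other cells, with 3 or more needed. A cluster with as many mesenchyme markers as markers of another class was called mesenchyme, a rule chosen after seeing the data. In dual-enSERT-2 634 cells and in dual-enSERT-1 1453 cells stayed unnamed, at median depths of 5209 and 2972 UMIs.

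Levels are pooled CPM. Each cell was thinned to 5000 UMIs before shares, combinations of Sox genes and position were read. Background shares cover genes with at least 20 CPM in either group, except where 1 UMI or more is named. The 10 genes, the lists and the rule for named genes were chosen with earlier results of these data known. That rule took up to 8 further genes per direction, at 20 CPM or more, that moved the same way in both libraries, ranked by the smaller log2 ratio. Of these, 1 gene is not reported here. The ratio code was tested on simulated data. Alternatives were a minimum of 2000 genes, 5% mitochondrial counts, doublets kept, means over cells, other clustering, thinning to 2000 or 10000 UMIs, other Sox9 bins, other position rules and other scalings. Leaving out erythroid cells or a shallow cluster was added after seeing the data. Computation used Python 3.11.15, NumPy 2.4.6, SciPy 1.17.1, pandas 2.3.3 and matplotlib 3.10.9.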

Additional observations from a re-analysis of the deposited data

Results flagged for a closer look

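Sox6 ran in opposite directions along the limb in the 2 libraries. Its log2 ratio of proximal over distal level, with 1 CPM added to both, was -0.63 in dual-enSERT-2 and 1.27 in dual-enSERT-1. It was noted because the libraries had opposite signs, and with 1 library per group the difference was not tested.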

How the results depend on the processing

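Of 518 member values recomputed under the alternatives, 15 moved by over 1.5 times and 1 turned round, and none of the 15 came from leaving out the shallow cluster. The count by Sox9 level was 3 and became 1 with bins from thinned cells, where the log2 ratio of Col2a1 in dual-enSERT-2 was 2.20 in place of 2.93 and that of Col9a3 was 0.58 in place of 1.39. The count higher in proximal cells was 2 and became 1 with detection at 2 UMIs. Without erythroid cells the log2 ratio of mesenchyme over the other classes in dual-enSERT-2 was -1.12 for Sox6 in place of 1.10, 2.39 for Sox9 in place of 4.15, 2.35 for Sox5 in place of 4.35, -2.45 for Col2a1 in place of -0.14 and -0.68 for Col9a2 in place of 0.17. With doublets kept it was 2.26 for Sox9 in place of 3.999, 1.96 for Sox5 in place of 3.20 and 1.43 for Col9a1 in place of 2.07 in dual-enSERT-1, and the count by class was 3 in place of 4. Averaging over cells gave counts of 3 by class and 2 by Sox9 level. The cause was not tested. Between libraries the count was 8 under every alternative run. Acan in both libraries, and Cnmd, Matn4 and Col9a2 in dual-enSERT-2, had too few UMIs to be ordered. No paired analysis was possible because each group held 1 library, and no library could be left out for the same reason.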

Other observations

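Sox9 was lower in cells with an mCherry UMI than in cells with no reporter UMI. In proximal cells of dual-enSERT-2 it stood at 44.7 CPM in 71 cells with mCherry and 134 CPM in 1378 cells with no reporter, a ratio of 0.332 (0.267 to 0.409). In proximal cells of dual-enSERT-1 it stood at 264 CPM in 157 cells and 338 CPM in 2750 cells, a ratio of 0.783 (0.721 to 0.850). Distal ratios were 0.331 in dual-enSERT-2 and 0.413 in dual-enSERT-1. Col2a1 followed with proximal ratios of 0.406 and 0.746, while Sox5 was slightly higher with mCherry, at 1.26 in both libraries. The ZRS that drives mCherry is active in the posterior limb bud, and the part of position in these ratios was not tested.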
